A study of Mus musculus with 11 samples.

Results

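Ifi27, Ifi27l2a, Rtp4, Xaf1, Bst2, Ly6e, Lgals3bp and Tor3a are interferon-stimulated genes, and their transcripts are described here across 11 libraries of mouse acute myeloid leukaemia (AML). They are 8 of the 55487 genes in the count table, each found by the Ensembl identifier that maps to its symbol. The set was selected on measured values, since some of its genes were already known to be abundant in the AMLs of this series that are rich in B-lineage transcripts. Levels by B-lineage content are therefore given as a description, with no test. The first set of libraries came from 5 AMLs labelled Ifnar1 -/-, which lack both functional copies of the gene for a type I interferon receptor subunit, and the second from 6 AMLs labelled Ifnar1 +/-, with 1 functional copy. All 11 AMLs carried Flt3-ITD, an internal tandem duplication that activates the cytokine receptor Flt3, and NHD13, the NUP98-HOXD13 fusion transgene. AML with wild-type Ifnar1 was not analysed here. The labels name the source as AML, the design text speaks of HPCs, and neither gives the age of the mice or whether each library stands for a different mouse, so the p-values cover only the spread among these samples.

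Type I interferons bind a receptor built from Ifnar1 and Ifnar2, which signals to the nucleus through kinases bound to it. Interferon-stimulated response elements, in which a GAAA unit is repeated at a fixed spacing, then raise transcription of many antiviral genes. The same genes can also be transcribed through other interferon receptors and regulatory factors. In blood-forming tissue they are active at low level without infection, and several also depend on cell type.

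Promoter sequence from RefSeq (GRCm38.p6) was at hand for 3 of the 8 genes, Bst2, Lgals3bp and Xaf1, and is shown as a description. The genes were chosen as interferon-stimulated, so a response element in them is not a trait independent of that choice. Windows reached from 250 bases before to 50 bases after the start site. The motif searched, on both strands, was GAAA, then 2 bases of any kind, then GAAA. It was present in 1 of the 3 windows, that of Bst2, in 2 overlapping copies that begin at -130 and -124 from the start site. Of all 32851 windows of the same length 3.44% hold it, and of 65 windows of other interferon-stimulated genes 40.0%. When the spacer could be 1 to 3 bases, all 3 windows held a match, against 8.61% of all windows and 53.8% of those of other interferon-stimulated genes. Lgals3bp has a spacer of 3 bases, from -17, and Xaf1 has a spacer of 1 base, from position 11 of the transcript. These positions count from the RefSeq start sites. In the GENCODE M21 gene model Lgals3bp begins farther upstream, at 118402092, so its match lies inside that model. In the stretches below, 5′ to 3′ on the strand of the gene, capitals mark the matches. Bst2 lies at chr8:71537527-71537662 on the minus strand, Lgals3bp at chr11:118401960-118401986 on the minus strand and Xaf1 at chr11:72301629-72301658 on the plus strand.
Bst2: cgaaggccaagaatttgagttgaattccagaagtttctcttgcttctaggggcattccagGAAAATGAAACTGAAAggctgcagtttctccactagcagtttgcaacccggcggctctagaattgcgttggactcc
Lgals3bp: tgtgttttctGAAAATCGAAActaggt
Xaf1: tgtgtgcaaaGAAACGAAActccacagaag
A match is a run of letters and does not show that a factor binds there.

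Library totals ran from 25583642 to 38728143 estimated counts. Levels are given as CPM, counts relative to library size, after scaling by TMM factors of 0.682 to 1.13. Ebf1, the gene of a transcription factor that specifies the B lineage, split the libraries with no value in between. It had 531 to 745 CPM in Ifnar1 -/- libraries 3 and 5 and Ifnar1 +/- libraries 3, 4 and 5, called Ebf1-high here, and 0.0309 to 8.72 CPM in the other 6, called Ebf1-low. Although all samples are labelled AML, the summed level of 13 B-lineage marker genes was 6972 to 10363 CPM in the Ebf1-high libraries and 16.3 to 206 CPM in the Ebf1-low ones. The most abundant of them, Cd79a and Igll1, encode parts of the B-cell and pre-B-cell receptors. Ifnar1 -/- library 2 stood apart by granulocyte transcripts, with a summed level of 53209 CPM for 5 eosinophil and 38665 CPM for 7 neutrophil marker genes. Ifnar1 +/- library 6 stood apart by 6 erythroid marker genes, which summed to 87850 CPM, with Hbb-bs and Hba-a1 the most abundant. In bulk RNA, fewer cells of a type and less RNA per cell cannot be told apart.

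Between genotypes, 7 of the 8 genes had a lower fitted level in Ifnar1 -/- than in Ifnar1 +/- AML, and none passed the test over all genes. Their median log2 fold change (Ifnar1 -/- over Ifnar1 +/-) was -1.05, against -0.01 over all 14521 genes tested, of which 51.7% were below 0. The 8 were chosen with earlier results of these data known. Their count and median therefore describe the set and do not test a genotype effect. All 8 passed the filter on low counts. In edgeR's quasi-likelihood test 0% of all genes passed at an adjusted p of 0.05, and the adjusted p was 0.9998 for each of the 8. At an unadjusted p under 0.05 there were 2 of the 8, Rtp4 and Ifi27, with lower values, against 0.771% of all genes with lower values. In all 289 genes had an unadjusted p under 0.05 there. DESeq2 called 3 genes of the table, Fyttd1, Nrp2 and Prf1, and had 2 of the 8 and 3.13% of all genes at an unadjusted p under 0.05. In limma voom none passed, and 5 of the 8 and 8.55% of all genes had an unadjusted p under 0.05 in either direction. Of these 5, Ifi27, Rtp4, Xaf1 and Tor3a had lower values in Ifnar1 -/- AML, and Ly6e had higher ones. No gene of the 8 had all Ifnar1 -/- libraries below all Ifnar1 +/- libraries, which held for 0.0758% of all genes.

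**Figure D1:**
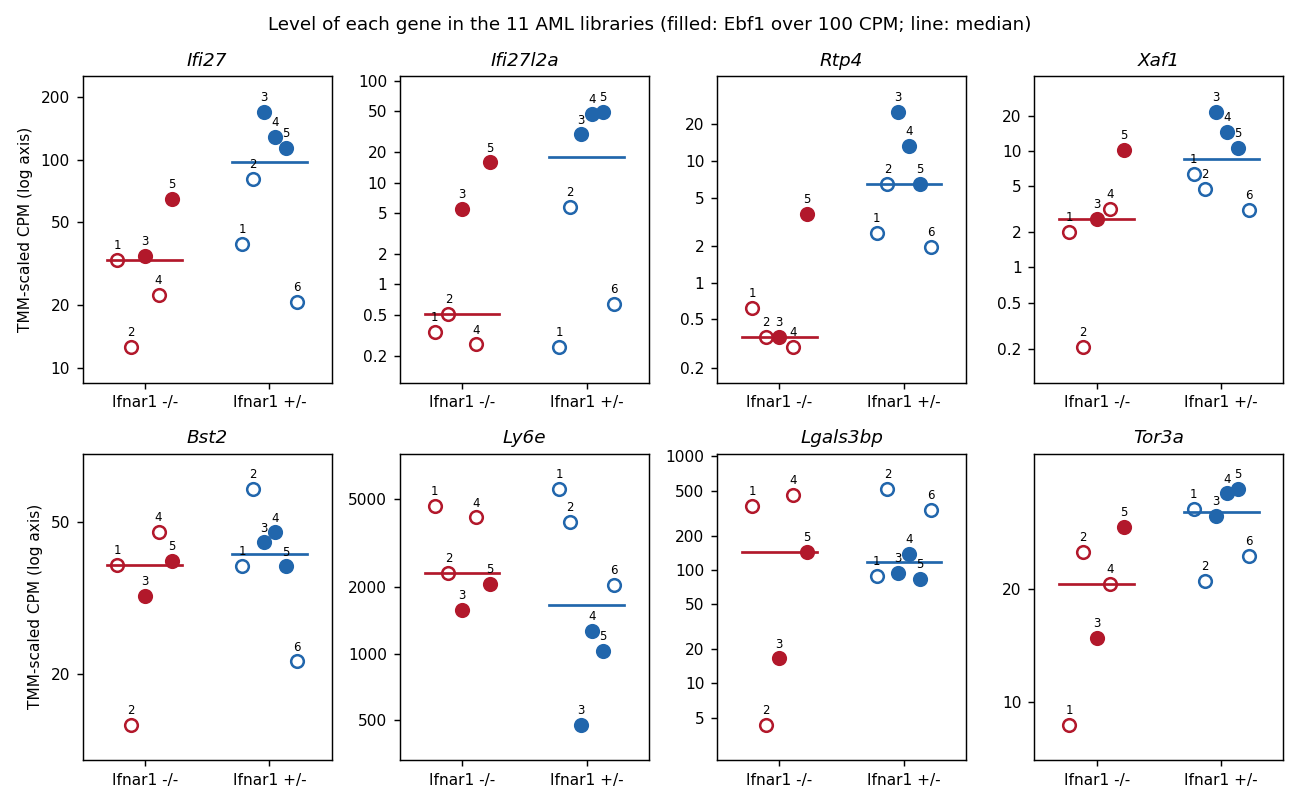
TMM-scaled CPM (log axis) of each gene in 5 Ifnar1 -/- and 6 Ifnar1 +/- AML libraries. Each point is 1 library with its number, filled points have Ebf1 over 100 CPM, and lines are medians. For Rtp4, 4 of 5 Ifnar1 -/- points lie below every Ifnar1 +/- point, while for Ly6e and Lgals3bp the genotypes overlap widely.

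Ifi27 encodes a small hydrophobic protein of mitochondrial and other membranes. Its locus (ENSMUSG00000064215) is on chromosome 12 from 103434211 to 103440239 in GRCm38, the build of all gene positions here, on the plus strand. It had 32.9, 12.5, 34.3, 22.3 and 64.7 CPM in Ifnar1 -/- libraries 1 to 5, against 20.8 to 170 CPM with a median of 97.1 CPM in the 6 Ifnar1 +/- libraries. All 5 Ifnar1 -/- values lay below the Ifnar1 +/- median, but only library 2 lay below the lowest Ifnar1 +/- value, so the groups overlapped. In Ifnar1 -/- AML the mean was 33.3 ± 19.6 CPM (SD, n = 5), against 92.1 ± 56.2 CPM (SD, n = 6) in Ifnar1 +/- AML, and the log2 fold change was -1.46 (SE 0.56, edgeR unadjusted p = 0.0248).

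Ifi27l2a is a paralogue of Ifi27, known in mice as an interferon-induced gene. Ifi27l2a (ENSMUSG00000079017) follows Ifi27 on chromosome 12, from 103442167 to 103443680 on the minus strand, so the pair lies tail to tail with 1927 bases between. Ifi27l2a had 0.340, 0.516, 5.55, 0.258 and 15.8 CPM in Ifnar1 -/- libraries 1 to 5, against 0.242 to 49.4 CPM with a median of 17.7 CPM in the Ifnar1 +/- libraries. Values near the bottom occurred in both genotypes, and Ifnar1 +/- library 1 had the lowest of all. The log2 fold change was -2.30 with an SE of 1.47 (edgeR unadjusted p = 0.147). From its lowest to its highest library Ifi27l2a differed 204-fold, against 13.5-fold for its neighbour Ifi27. The other paralogue, Ifi27l2b, was nearly silent, with at most 0.258 CPM in Ifnar1 -/- and 1.17 CPM in Ifnar1 +/- libraries. Reads that match more than 1 of these paralogues may have been split between them.

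Rtp4 encodes a chaperone-like protein that helps G protein-coupled receptors reach the cell surface and that also acts against viruses. Its locus (ENSMUSG00000033355) is annotated on chromosome 16 from 23520291 to 23614222 on the plus strand. It had 0.618, 0.361, 0.358, 0.295 and 3.68 CPM in Ifnar1 -/- libraries 1 to 5, against 1.98 to 25.4 CPM with a median of 6.48 CPM in the Ifnar1 +/- libraries. Ifnar1 -/- libraries 1 to 4 lay below every Ifnar1 +/- library, on 7 to 20 estimated counts each, and library 5 lay above the lowest 2 of them, on 115 counts. In Ifnar1 -/- AML the mean was 1.06 ± 1.47 CPM (SD, n = 5), against 9.35 ± 8.81 CPM (SD, n = 6) in Ifnar1 +/- AML. The log2 fold change was -3.13 (SE 0.95, edgeR unadjusted p = 0.00711). Of all genes tested, 0.269% had a log2 fold change at or below this. Exons of Rtp4 overlap those of the predicted gene Gm45338 on the same strand, and the gene also overlaps Masp1 on the minus strand, so reads there could belong to another gene.

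Xaf1 encodes a partner and antagonist of the apoptosis inhibitor Xiap. Its locus (ENSMUSG00000040483) is on chromosome 11 from 72301629 to 72313733 on the plus strand. It had 2.01, 0.206, 2.61, 3.17 and 10.2 CPM in Ifnar1 -/- libraries 1 to 5, against 3.12 to 21.7 CPM with a median of 8.54 CPM in the Ifnar1 +/- libraries. In 3 of 5 Ifnar1 -/- libraries it lay below every Ifnar1 +/- library, and library 2 was far the lowest, with 4 counts. Its log2 fold change was -1.49 (SE 0.80, edgeR unadjusted p = 0.0909). Its partner Xiap averaged 14.1 ± 2.72 CPM over the Ifnar1 -/- libraries (SD, n = 5) and 14.2 ± 2.26 CPM over the Ifnar1 +/- libraries (SD, n = 6), with a log2 fold change of -0.01 (SE 0.20).

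Tor3a encodes a torsin, an ATPase of the endoplasmic reticulum lumen. Its locus (ENSMUSG00000060519) is on chromosome 1 from 156653617 to 156674356 on the minus strand. It had 8.68, 25.1, 14.8, 20.6 and 29.2 CPM in Ifnar1 -/- libraries 1 to 5, against 21.0 to 36.9 CPM with a median of 32.0 CPM in the Ifnar1 +/- libraries. All 5 Ifnar1 -/- values were below the Ifnar1 +/- median and 3 were below every Ifnar1 +/- value, so the overlap was partial. The log2 fold change was -0.63 (SE 0.30, edgeR unadjusted p = 0.0624), a smaller one than those of the 4 genes above. Tor1b, another torsin gene, averaged 23.9 ± 3.73 CPM over the Ifnar1 -/- libraries (SD, n = 5) and 25.5 ± 3.07 CPM over the Ifnar1 +/- libraries (SD, n = 6).

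The surface antigen genes Bst2 and Ly6e overlapped widely between genotypes. Bst2 encodes tetherin, which holds budding enveloped viruses at the cell surface and marks plasmacytoid dendritic cells in resting mice. Its locus (ENSMUSG00000046718) is on chromosome 8 from 71534255 to 71537456 on the minus strand. It had 38.5, 14.8, 32.0, 47.1 and 39.6 CPM in Ifnar1 -/- libraries 1 to 5, against 21.6 to 60.9 CPM with a median of 41.3 CPM in the Ifnar1 +/- libraries. Apart from the low Ifnar1 -/- library 2 and Ifnar1 +/- library 6, the values lay close together, and the log2 fold change was -0.28 (SE 0.32). Of 9 plasmacytoid dendritic cell markers 7 were detected, with a summed level of 190 to 676 CPM in Ifnar1 -/- and 164 to 777 CPM in Ifnar1 +/- libraries. Siglech and Klk1 had 0 counts in every library, and Ccr9 had at most 2.56 CPM in Ifnar1 -/- and 0.145 CPM in Ifnar1 +/- libraries. Tcf4, which other blood cells also express, had 147 to 338 CPM in Ifnar1 -/- and 150 to 324 CPM in Ifnar1 +/- libraries. Irf8 and Spib, which B-lineage cells also express, had 155 to 333 CPM in the Ebf1-high libraries and at most 7.37 CPM in the Ebf1-low ones. The part of such cells in the Bst2 level was not tested.

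Ly6e encodes a lipid-anchored surface protein that limits the entry of some viruses. Its locus (ENSMUSG00000022587) is on chromosome 15 from 74955051 to 74959905 on the plus strand. It had 4686, 2323, 1577, 4143 and 2066 CPM in Ifnar1 -/- libraries 1 to 5, against 477 to 5568 CPM with a median of 1660 CPM in the Ifnar1 +/- libraries. It was the only one of the 8 with a fitted value above 0, a log2 fold change of 0.31 (SE 0.58). The value was 0.98 among the Ebf1-high libraries (edgeR unadjusted p = 0.0638) and -0.03 among the Ebf1-low ones. In limma voom it was 1.33 (unadjusted p = 0.0248, adjusted p = 0.508). Ly6d, a relative that marks early lymphoid progenitors, had 451 CPM in Ifnar1 -/- library 3 and 0 to 16.7 CPM in the other Ifnar1 -/- libraries, against 0.162 to 10.4 CPM in Ifnar1 +/- libraries. Of 19 listed relatives and partners of the 8 genes, 13 could be tested, 6 with lower and 7 with higher fitted values in Ifnar1 -/- AML, and none passed.

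Lgals3bp encodes a secreted glycoprotein that binds galectin-3. Its locus (ENSMUSG00000033880) is on chromosome 11 from 118392751 to 118402092 on the minus strand. It had 368, 4.33, 16.6, 455 and 144 CPM in Ifnar1 -/- libraries 1 to 5, against 83.2 to 515 CPM with a median of 117 CPM in the Ifnar1 +/- libraries. Ifnar1 -/- libraries 2 and 3 lay below every Ifnar1 +/- library, while libraries 1 and 4 were among the highest. Its log2 fold change was -0.09 (SE 0.98), and it turned above 0, to at most 0.41, without Ifnar1 -/- library 2, 3 or 5 or without Ifnar1 +/- library 2 or 6.

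**Figure D2:**
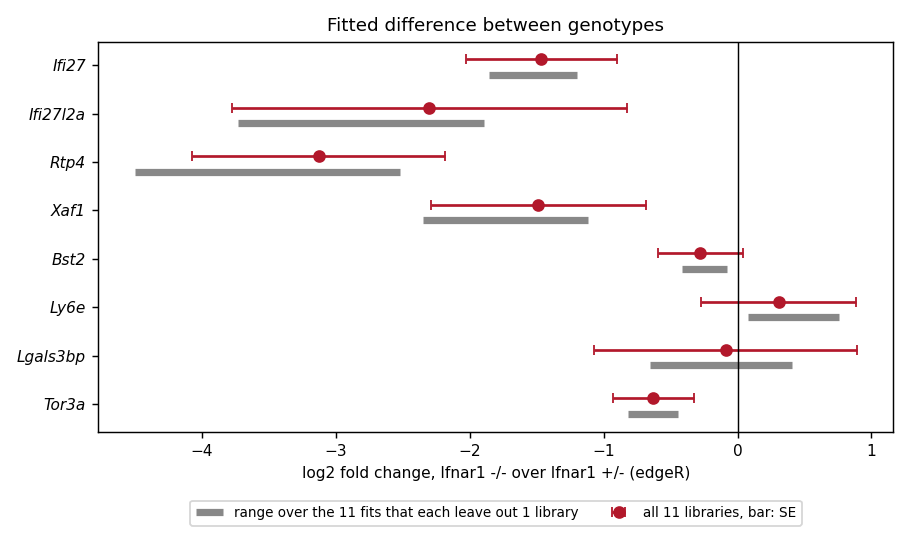
Log2 fold change of each gene, Ifnar1 -/- over Ifnar1 +/-, from edgeR with all 11 libraries (points, bars are SE) and the range over the 11 fits that each leave out 1 library (grey). Rtp4 runs from -4.50 to -2.52 when 1 library is left out, and Lgals3bp from -0.65 to 0.41, across 0.

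Several of these differences moved when 1 library was left out. Without Ifnar1 -/- library 5 the log2 fold change was -4.50 for Rtp4, -3.73 for Ifi27l2a and -2.35 for Xaf1, and 5 of the 8 genes had an unadjusted p under 0.05, namely Ifi27, Ifi27l2a, Rtp4, Xaf1 and Tor3a, as did 3.52% of all genes. With all libraries there were 2 of the 8 and 1.99% of all genes. There was 1 of the 8 without Ifnar1 -/- library 2 (1.42% of all genes), without Ifnar1 -/- library 4 (2.27%) or without Ifnar1 +/- library 3 (1.65%), and there were 3 without Ifnar1 +/- library 2 (2.94%). Ifnar1 -/- library 5 had the highest value of its genotype for the same 5 genes.

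Set against Ebf1, the 8 genes differed in pattern. Ifi27l2a was nearest to a B-lineage pattern, with 5.55 to 49.4 CPM in the 5 Ebf1-high libraries and 0.242 to 5.71 CPM in the other 6. The overlap came from Ifnar1 -/- library 3, at 5.55 CPM, and Ifnar1 +/- library 2, at 5.71 CPM and with the highest Ebf1 of the 6. Ifi27, Rtp4, Xaf1 and Tor3a had higher medians in Ebf1-high libraries and broad overlap, for instance 34.3 to 170 CPM of Ifi27 with a median of 113 CPM, against 12.5 to 80.8 CPM with a median of 27.6 CPM in the others. Ly6e and Lgals3bp had lower medians in Ebf1-high libraries. Ly6e had 477 to 2066 CPM there and 2052 to 5568 CPM in the others, with overlap only between Ifnar1 -/- library 5 and Ifnar1 +/- library 6. Lgals3bp had a median of 94.7 CPM in Ebf1-high libraries and 354 CPM in the others. Bst2 had a median of 39.6 CPM in Ebf1-high and 38.5 CPM in Ebf1-low libraries. None of the 8 genes separated the Ebf1-high from the Ebf1-low libraries without overlap, in either direction, which 21.1% of all tested genes did. This contrast was used to choose the genes, so nothing is read from these counts.

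**Figure D3:**
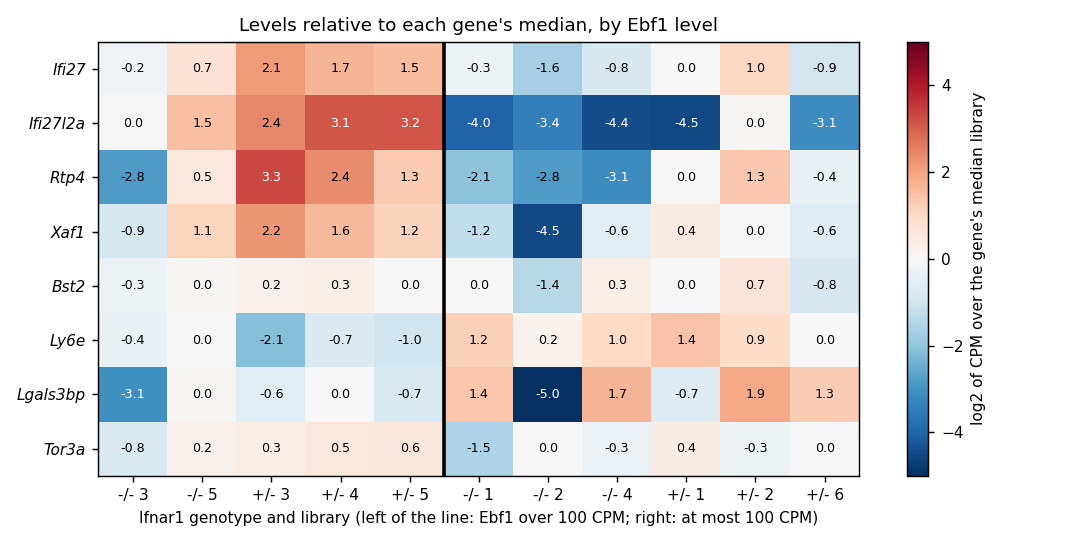
Log2 of the CPM over the median library of each gene, for 11 libraries labelled by Ifnar1 genotype and number. Libraries left of the line have Ebf1 over 100 CPM, with Ifnar1 -/- first on each side. Ifi27, Ifi27l2a and Xaf1 are highest in Ifnar1 +/- libraries 3, 4 and 5, and Ly6e is highest right of the line.

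Within the Ebf1-high libraries, 5 of the 8 genes had both Ifnar1 -/- libraries below all 3 Ifnar1 +/- libraries, which held for 8.80% of all tested genes and for 12 of 52 other interferon-stimulated genes (23.1%). Ifi27 had 34.3 and 64.7 CPM in Ifnar1 -/- libraries 3 and 5, and 170, 129 and 113 CPM in Ifnar1 +/- libraries 3, 4 and 5. Ifi27l2a had 5.55 and 15.8 CPM in the same Ifnar1 -/- libraries, and 29.6, 47.3 and 49.4 CPM in the Ifnar1 +/- ones. Rtp4 had 0.358 and 3.68 CPM in these Ifnar1 -/- libraries, against 25.4, 13.2 and 6.47 CPM in these Ifnar1 +/- libraries. Xaf1 had 2.61 and 10.2 CPM in the Ifnar1 -/- and 21.7, 14.7 and 10.7 CPM in the Ifnar1 +/- libraries, and Tor3a had 14.8 and 29.2 CPM in the Ifnar1 -/- and 31.3, 36.0 and 36.9 CPM in the Ifnar1 +/- libraries. Both were separated by a narrow margin. Ly6e was separated the other way, with 1577 and 2066 CPM in Ifnar1 -/- libraries 3 and 5. It had 477 to 1268 CPM in the Ebf1-high Ifnar1 +/- libraries. The share of all genes separated in that direction was not counted. These libraries were grouped by their Ebf1 level and are not groups of the study.

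Among the 6 Ebf1-low libraries, 1 of the 8 genes, Rtp4, had all 3 Ifnar1 -/- libraries below all 3 Ifnar1 +/- libraries, which held for 3.93% of all tested genes and for 9 of the 52 other interferon-stimulated genes. It had 0.618, 0.361 and 0.295 CPM in Ifnar1 -/- libraries 1, 2 and 4, and 2.58, 6.48 and 1.98 CPM in Ifnar1 +/- libraries 1, 2 and 6. Rtp4 was thus separated by genotype on either side of the Ebf1 gap, as were 0.455% of all tested genes and, of the 52 other interferon-stimulated genes, Oas2 and Oasl1. Oas2 and Oasl1 were close to the floor, with at most 0.704 and 1.89 CPM in any Ifnar1 -/- library. Ifi27l2a overlapped between genotypes on this side, with 0.258 to 0.516 CPM in Ifnar1 -/- and 0.242 to 5.71 CPM in Ifnar1 +/- libraries. For the Rtp4 log2 fold change, edgeR gave -2.89 in the Ebf1-high libraries alone and -3.08 in the others alone. For Ifi27 these values were -1.47 and -1.03. Whether the genotype effect differs between the Ebf1 classes was not tested. With the Ebf1 class as a covariate over all 11 libraries, the log2 fold change was -3.00 for Rtp4, -2.28 for Ifi27l2a, -1.24 for Ifi27 and -1.35 for Xaf1. Each had an unadjusted p under 0.05, as did 2.93% of all genes, and the adjusted p was 0.995 for all 4. With the log2 CPM of Ebf1 as the covariate instead, 1 of the 8 genes, Rtp4 at -2.41, and 2.58% of all genes had an unadjusted p under 0.05. Ifi27 was then at -0.84 (unadjusted p = 0.0700), Ifi27l2a at -0.91 (unadjusted p = 0.230) and Xaf1 at -0.96.

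Other interferon-stimulated genes also had lower fitted values more often than not. Of 61 listed, 52 could be tested, and 40 (76.9%, against 51.7% of all genes) had lower and 12 had higher fitted values in Ifnar1 -/- AML, with a median log2 fold change of -0.41 and none called. Among the Ebf1-high libraries alone 40 of 52 had lower values, and among the Ebf1-low libraries alone 28 of 48. The median log2 fold change over all genes was -0.005 and 0.03 in these 2 fits, and their share of all genes with lower values was not counted. With all libraries, 6 had lower values at an unadjusted p under 0.05 (11.5%, against 0.771% of all genes) and 0 had higher values. The smallest unadjusted p among the lower ones belonged to Ifit1, Oasl1, Oas2 and Oasl2. Of these, Ifit1, Oas2 and Oasl1 had at most 0.774, 0.704 and 1.89 CPM in any Ifnar1 -/- library, close to the floor. Such genes could pass the filter on low counts through the Ifnar1 +/- libraries alone, so their direction is not independent of it. Ifit1, whose product binds viral RNA, averaged 0.436 ± 0.298 CPM over the Ifnar1 -/- libraries (SD, n = 5) and 3.97 ± 3.12 CPM over the Ifnar1 +/- libraries (SD, n = 6). Some Ifit and Oas genes have near-identical copies, so counts in these families can be uncertain. Among the higher ones the smallest unadjusted p belonged to Helz2, Uba7, Samhd1 and Znfx1, with log2 fold changes of 0.30 to 1.02. That of Samhd1 turned below 0 without Ifnar1 -/- library 2. The 17 receptor and signalling genes of the interferon pathway were split, 8 with lower and 9 with higher values. Ifnar1 itself had 36.3 to 133 CPM in Ifnar1 -/- and 39.3 to 84.5 CPM in Ifnar1 +/- libraries, and gene-level counts cannot check a deletion of part of the gene.

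**Figure D4:**
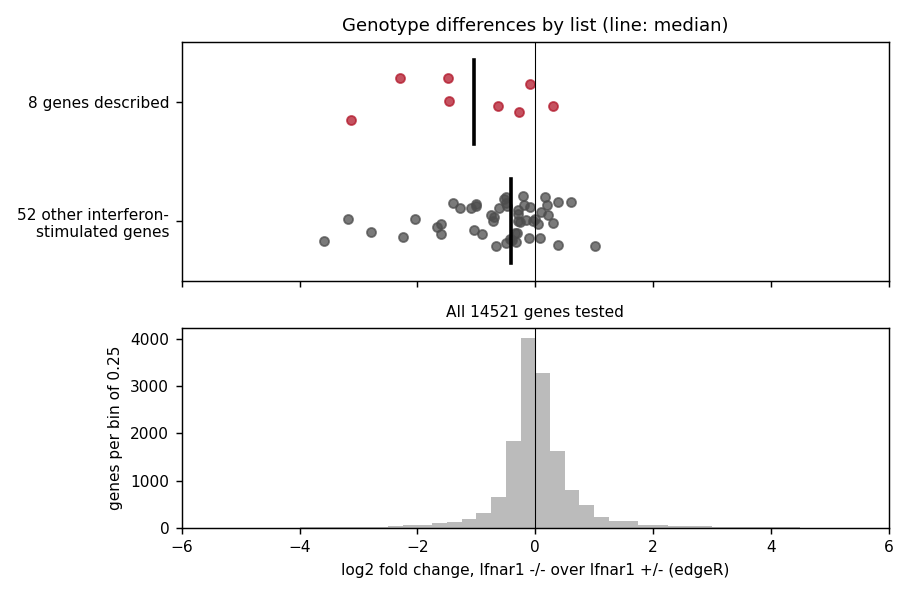
Log2 fold changes, Ifnar1 -/- over Ifnar1 +/- (edgeR), of the 8 genes and of 52 other interferon-stimulated genes (upper part, 1 point a gene, lines are medians, vertical scatter has no meaning) and of all genes tested as a histogram (lower part, 1 gene lies outside the axis). The medians are -1.05 and -0.41, against -0.01 over all genes. Genes of both lists were chosen with earlier results of these data known.

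Per kilobase of exon, Ly6e was far the most abundant of the 8 at 700 ± 440 CPM per kb (SD over 11 libraries). Lgals3bp followed with 71.8 ± 63.6, Ifi27 with 44.6 ± 35.3, Bst2 with 42.5 ± 13.9 and Ifi27l2a with 30.5 ± 41.4 CPM per kb, and neighbours in this order did not differ beyond their spread. Tor3a at 6.56 ± 2.27, Rtp4 at 2.62 ± 3.59 and Xaf1 at 1.54 ± 1.39 CPM per kb had the lowest means, and Rtp4 and Xaf1 did not differ beyond their spread either. Ifi27l2a ran from 0.522 to 107 CPM per kb and Tor3a from 2.23 to 9.49, so the place of Ifi27l2a above Tor3a did not hold in every library. Exon lengths are those of GENCODE M21, and the isoforms in these cells are not known.

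The order of the libraries was compared between genes by the mean absolute difference in rank over the 11 libraries. For Ifi27 the most alike of all tested genes were Hibadh (0.182 ranks) and Igf2r (0.545), and for Rtp4 they were Efna5 (0.364) and Oas2 (0.727). Ifi27l2a was most like Hes5 and Chd1 (0.364 each), Xaf1 like Map7 and Cplx2 (0.727 each), and Tor3a like Uggt1 (0.909) and Apof (1.09). Bst2 was most like Erg (0.909) and Extl1 (1.09), Ly6e like Fkbp5 and Syt5 (0.545 each), and Lgals3bp like Bace2 (0.455) and Tmem176a (0.545). Among the 8 themselves, Ifi27 differed by 1.09 ranks from both Rtp4 and Xaf1, with 24 of all tested genes more alike, and by 4.73 ranks from Ly6e. The neighbours Ifi27 and Ifi27l2a differed by 1.82 ranks, and Bst2 and Lgals3bp by 1.64. All of these comparisons share the same 11 libraries and the Ebf1 split.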

How the data were processed

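RNA from 11 mouse AML samples was sequenced, with RNA extracted with a Qiagen micro kit and a Clontech kit for the libraries, per the labels' protocols. The authors deposited estimated counts per gene (expected counts, 10.0% to 11.3% of values not whole), with no scaling between samples per the values. bcl2fastq and DRAGEN are named, with no version or role, per the submitters' processing notes. For the counting, genome build, annotation and strand setting were not given in the sources used. Of 55774 rows, 287 identical copies were dropped. Symbols were matched for 55141 identifiers, and those without a symbol made up 0.0219% of the counts or less in any library. Gene positions and exon lengths are from GENCODE M21 (GRCm38).

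Rounded counts entered edgeR 4.0.16 under R 4.3.3 (filterByExpr by genotype, TMM, robust quasi-likelihood F-test, two-sided, Benjamini-Hochberg over all tested genes, threshold 0.05). The SE is the absolute log2 fold change over the square root of F. The biological coefficient of variation was 0.782. The fit was tested on simulated data, with recovery of changes required only at a dispersion of 0.05. This does not show how many changes it finds at the spread of these data. Alternatives were DESeq2 1.42.0, limma 3.58.1 voom with quality weights, other scaling factors and filters, robust=FALSE, each library left out in turn, a block for replicate number, and Ebf1 as a covariate or to divide the libraries at 100 CPM. The 8 genes and all lists were chosen with earlier results of these data known. Named besides the 8 are Ifnar1, Ebf1, up to 4 relatives, up to 4 other interferon-stimulated genes per direction by p, the 2 most alike genes by rank, without predicted genes, and up to 2 genes per marker list by mean level. Mentions of other genes were chosen after their values were seen. Intervals for single values are not given, since PCR reads without molecular identifiers are not independent molecules.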

Additional observations from a re-analysis of the deposited data

Results flagged for a closer look

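Among 16 groups of values (8 genes in 2 genotypes), 1 library stood apart from its group by a gap of over 0.71 of the range, the limit for 5 samples. Ifnar1 -/- library 5 had 3.68 CPM of Rtp4, against 0.295 to 0.618 CPM in the other 4 Ifnar1 -/- libraries, a gap of 0.905 of the range. Chance marks about 1 in 20 groups. Library 5 is Ebf1-high, as is library 3, which had 0.358 CPM. Without library 5 the log2 fold change of Rtp4 was -4.50 (edgeR adjusted p = 0.979).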

How the results depend on the processing

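With 23 alternatives tried, Ifi27, Ifi27l2a, Xaf1, Bst2 and Tor3a kept a negative log2 fold change in all 23 and Rtp4 in the 22 that could test it, since it did not pass a filter of 5 CPM in 5 libraries. The log2 fold change of Rtp4 ran from -4.50 to -2.41 and that of Ifi27 from -1.85 to -0.84. None of the 8 passed in any alternative, with a smallest adjusted p of 0.359 (Rtp4, DESeq2). Lgals3bp turned to 0.34 in limma voom and ran from -0.65 to 0.41 when 1 library was left out. Ly6e turned to -0.034 among the Ebf1-low libraries. Samhd1 turned to -0.10 with the log2 CPM of Ebf1 as a covariate, but was 0.51 with the Ebf1 class as a covariate. It ran from -0.58 to 1.45 when 1 library was left out. Ly6e was at 1.33 in limma voom. The cause was not tested. Other interferon-stimulated genes with lower values numbered 40 of 52, 36 to 44 when 1 library was left out and 29 of 40 with the filter of 5 CPM. There were 40 of 52 in the Ebf1-high and 28 of 48 in the Ebf1-low libraries. Genes called were 0 in edgeR and 3 in DESeq2. The motif searched, with a spacer of 2 bases, was in 1 promoter. Looser GAAA repeats, with a spacer of 1 to 3 bases, were in 3. With a replicate block 0 genes were called, and Rtp4 had -3.74. Correlations of the deviations of same-numbered libraries ran from -0.547 to 0.584. The labels do not say that the numbers pair samples. These correlations cannot decide it, since any variation between samples, such as in Ebf1 level, enters them. With Ebf1 CPM as a covariate, Ifi27l2a had -0.91. Depth limits the low values, since Ifi27l2a had 6 to 20 counts in 5 libraries, Rtp4 had 7 to 20 in 4 and Xaf1 had 4 in 1.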

Other observations

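Ifnlr1, the gene of a type III interferon receptor chain and not one of the 8, had 2.83 and 6.88 CPM in the Ebf1-high Ifnar1 -/- libraries 3 and 5, and 3.93 to 6.01 CPM in the Ebf1-high Ifnar1 +/- libraries. In the other 6 libraries it was listed at 0 CPM in all 3 Ifnar1 -/- libraries and at 0.0974 to 0.635 CPM in the 3 Ifnar1 +/- libraries. It was chosen after its values were seen. Its part in the levels of the 8 genes was not tested.

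Marker lists of other cell types were read beside the 8 genes. No member of the plasma cell, macrophage and monocyte, erythroid, T and NK cell or endothelial lists passed the test between genotypes. Of 6 erythroid genes 5 had lower fitted values in Ifnar1 -/- AML, against 51.7% of all genes, with a median log2 fold change of -2.42. In edgeR 1 of them had an unadjusted p under 0.05, against 0.771% of all genes with lower values. Other lists were uneven too. Values were higher for all 5 eosinophil and 6 of 7 neutrophil genes, and lower for 11 of 12 B-lineage and 7 of 9 macrophage and monocyte genes. The erythroid genes summed to 1177 to 7327 CPM in Ifnar1 -/- and 559 to 87850 CPM in Ifnar1 +/- libraries, with the highest in Ifnar1 +/- library 6. Leaving it out gave log2 fold changes of -1.67 for Ifi27, -2.55 for Ifi27l2a, -0.41 for Bst2 and 0.10 for Lgals3bp. The 9 macrophage and monocyte genes summed to 38.2 to 1169 CPM in Ifnar1 -/- and 13.3 to 346 CPM in Ifnar1 +/- libraries, with the highest in Ifnar1 -/- library 2. In Ifnar1 -/- library 2 Bst2, Ifi27, Lgals3bp and Xaf1 had their lowest values of all 11 libraries. Without it the log2 fold changes were -0.076 for Bst2, -1.24 for Ifi27, 0.23 for Lgals3bp and -1.16 for Xaf1.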
